A study of Mus musculus with 6 samples.

Results

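Leukocytes find their way through receptors that sense chemokines, complement fragments, lipids and formylated peptides. The 9 receptor genes described here are Ccr1, Ccr2, Ccr3, Ccrl2, Cx3cr1, Cxcr4, Cmklr1, Fpr1 and Fpr2. They were chosen by name, with earlier results of these data known, from 24445 genes with a row in the deposited count table. All 9 had a row. Their RNA was measured by mRNA sequencing in bone marrow-derived macrophages (BMDMs) with, or without, a myeloid-specific deletion in the gene of ATP-citrate lyase (Acly). This enzyme makes acetyl-CoA from citrate in the cytosol.

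AclyM-KO cells came from mice on the C57Bl/6J background in which exon 9 of Acly was flanked by loxP sites and the Lyz2-Cre transgene was present, while Ctrl cells came from Acly fl/fl mice, so both groups carried the floxed alleles. Cre is named for the AclyM-KO mice only, so carrying the transgene and losing Acly cannot be told apart in these libraries. Lyz2-Cre acts in myeloid cells, neutrophils included, and Lyz2 is itself a macrophage gene. All cells were differentiated for 7 days in L929-conditioned medium and treated with IL-4, a cytokine that drives alternative activation, at 100 U/mL for 24 h. Untreated cells were not analysed here, so no effect of IL-4 can be read from these libraries. Each group had 3 libraries. The study's methods call the 3 transcriptomic replicates biological, while a figure legend speaks of technical replicates from 3 pooled mice. The p-values therefore measure the spread between these libraries only, which may be technical. The age of the mice was not given in the sources used here.

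Depth on the rows used was 12151975 to 15587283 counts per library, and 12023 genes had enough counts to be tested. Values are given as CPM, reads per 1e+06 reads of the library, scaled by TMM, a normalization of library sizes, as mean ± SD over 3 libraries. Acly, the targeted gene, was counted 4917, 3925 and 4606 times in Ctrl, against 2140, 2078 and 1978 times in AclyM-KO libraries. Its RNA in AclyM-KO cells was 41.4% of the Ctrl level, and the enzyme itself was not measured here. Every AclyM-KO library was below every Ctrl library, so Acly followed the labels (log2 fold change -1.27, SE 0.053, adjusted p = 5.22e-10, edgeR quasi-likelihood test with Benjamini-Hochberg adjustment). A gene was called changed when its adjusted p was under 0.05 and its log2 fold change lay beyond 0.58 in either direction. By that rule 2.98% of the tested genes were called higher and 2.57% lower in AclyM-KO cells, and their median log2 fold change was 0.0014.

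The receptors are heptahelical proteins of the cell surface. Binding of a ligand activates inhibitory G proteins, which drive calcium release and movement up a gradient, after which receptor kinases and arrestins silence and internalize the receptor. Ccr1 and Ccr2 serve the recruitment of monocytes and macrophages, Cxcr4 senses Cxcl12 and holds leukocytes in the bone marrow, and Cmklr1 senses chemerin, the product of Rarres2. Ccr3 is the eotaxin receptor of eosinophils, and Cx3cr1 binds fractalkine on monocytes and tissue macrophages. Ccrl2 binds chemerin without signalling, and Fpr1 and Fpr2 sense formylated peptides and, for Fpr2, annexin A1 and serum amyloid A.

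Of the 9 genes, Cmklr1 fell in AclyM-KO cells to 54.7% of its Ctrl level and was the only one called. Ccr1 was lower, at 73.7% of Ctrl, with an adjusted p under 0.05 but a change short of the fold limit. Cxcr4 stood at 113% of Ctrl and did not pass the adjusted threshold. The values of Ccr2, Ccr3 and Ccrl2 overlapped between groups, Fpr1 and Fpr2 were near 0, and Cx3cr1 had no count in any library.

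The upstream sequences of Cmklr1 and Ccr1 are shown because these were the members with an adjusted p under 0.05. Each is the 250 bases before a RefSeq transcription start on GRCm38.p6, written 5′ to 3′ on the minus strand, the strand of the gene. Capitals mark matches to 4 motifs searched on both strands. These were a STAT6 site (TTCNNNGAA or TTCNNNNGAA, where N is any base), the PU.1 core AGGAAG, the hypoxia response core ACGTG or GCGTG, and an AP-1 site (TGACTCA or TGAGTCA).
Cmklr1, chr5:113643604-113643853: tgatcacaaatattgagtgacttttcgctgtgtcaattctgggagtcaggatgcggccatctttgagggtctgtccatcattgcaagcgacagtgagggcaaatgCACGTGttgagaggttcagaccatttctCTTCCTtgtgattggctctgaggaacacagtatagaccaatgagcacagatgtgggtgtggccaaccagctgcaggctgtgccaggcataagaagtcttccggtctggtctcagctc
Ccr1, chr9:123968693-123968942: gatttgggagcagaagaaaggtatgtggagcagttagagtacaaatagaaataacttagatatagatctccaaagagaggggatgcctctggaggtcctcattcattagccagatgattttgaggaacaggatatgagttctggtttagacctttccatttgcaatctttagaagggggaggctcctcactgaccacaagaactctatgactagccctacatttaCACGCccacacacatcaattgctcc

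In Cmklr1 the first run of capitals is a palindrome that gives 1 hypoxia response core on each strand, 145 and 144 bases upstream of the start. The second is the PU.1 core on the opposite strand, 117 bases upstream. PU.1 is a transcription factor that macrophages need, and of the members' windows the PU.1 core was found in that of Cmklr1 alone. Ccr1 held 1 hypoxia response core on the opposite strand, 25 bases upstream. This core was also found in the windows of Cxcr4 (39 bases upstream) and Ccrl2, whose adjusted p was not under 0.05. Among 32851 promoter windows of the same length, 38.6% held a hypoxia response core, 29.5% a PU.1 core, 12.4% a STAT6 site and 4.46% an AP-1 site. STAT6 carries the IL-4 signal to the nucleus, and a STAT6 site was found only in the window of Fpr2, 77 bases upstream. An AP-1 site was found only in that of Ccr3, 144 bases upstream. Cmklr1 has more than 1 start. The GENCODE transcript paired with the counted row begins 6.82 kb upstream of the start used here, and the window before it was not searched. The Cmklr1 matches above therefore lie inside the gene, downstream of the start of that transcript. A match describes letters in a window and not a bound site.

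Cmklr1, the chemerin receptor, lies on chromosome 5 at 113612355 to 113650475 in GRCm38.p6 and its transcript has 3 exons. Its reads numbered 415, 292 and 333 in Ctrl libraries, against 184, 228 and 219 in AclyM-KO libraries. These were 28.0, 23.9 and 25.3 CPM in Ctrl and 12.6, 14.7 and 15 CPM in AclyM-KO cells. All AclyM-KO libraries were lower than all Ctrl libraries, with a gap between 15 and 23.9 CPM. The mean went from 25.7 ± 2.12 to 14.1 ± 1.33 CPM, a log2 fold change of -0.87 (SE 0.097, 95% interval -1.08 to -0.67, adjusted p = 1.1e-05, edgeR with Benjamini-Hochberg adjustment). It ranked 183 by p-value among the tested genes. The exact permutation test over libraries gave p = 0.10 (two-sided), the smallest that 3 against 3 allows. Leaving out 1 library at a time gave log2 fold changes of -0.93 to -0.80, all called. A stricter test that asks whether the change exceeds the fold limit itself (glmTreat) gave an adjusted p of 0.078, so a change larger than that limit was not shown. In bulk RNA, fewer cells that express a gene and less RNA per cell cannot be told apart, which holds for each receptor here.

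Macrophage markers were found in every library, and their sum was apart between the groups only with Lyz2 included. The summed level of 10 markers was 14043 to 15380 CPM in Ctrl and 11726 to 12194 CPM in AclyM-KO libraries. Lyz2, the gene named in the Cre transgene (log2 fold change -0.67), and Mertk (-0.73) were called lower (2.57% over all tested genes). By adjusted p alone 5 of the 10 were lower and 1 higher (12.6% and 12.4% over all tested genes). Without Lyz2, left out after its values were seen, the sums were 7951 to 8259 and 7606 to 7993 CPM and overlapped. The part of these shifts in the lower Cmklr1 and Ccr1 was not tested.

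**Figure D1:**
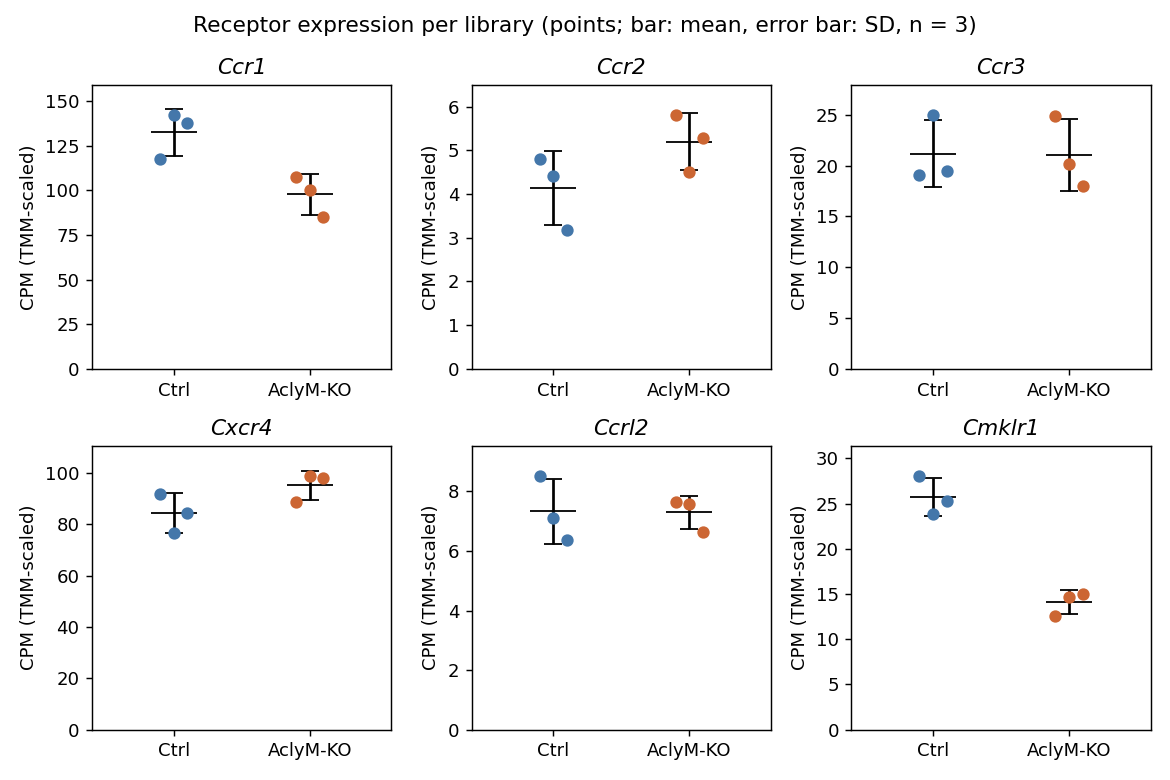
CPM of the 6 tested receptors in each library (points) of Ctrl and AclyM-KO cells, on linear axes from 0, with the mean (horizontal bar) and SD (error bar) of 3 libraries. Groups are apart for Ccr1 and Cmklr1 and overlap for the other 4.

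Among the CC chemokine receptors, Ccr1 was the most abundant. Ccr1 binds Ccl3, Ccl5, Ccl6 and Ccl9, and its gene lies on chromosome 9 at 123962126 to 123968692. It measured 118, 142 and 138 CPM in Ctrl and 108, 100 and 85.0 CPM in AclyM-KO libraries. The groups did not overlap, although the lowest Ctrl library (118 CPM) stood only slightly above the highest AclyM-KO library (108 CPM). The means were 133 ± 13.1 and 97.7 ± 11.6 CPM, a log2 fold change of -0.44 (SE 0.081, 95% interval -0.61 to -0.27, edgeR adjusted p = 0.0011, exact permutation p = 0.10). The value ran from -0.52 to -0.35 when 1 library at a time was left out. Among all tested genes, 12.6% were lower and 12.4% higher by adjusted p alone, and 19.8% had every AclyM-KO library below every Ctrl library against 20.5% above.

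By adjusted p alone, 2 of the 6 tested members were lower (Cmklr1 and Ccr1) and 0 higher. The tools edgeR, DESeq2 and limma-voom each called 0 members higher, and at an unadjusted p under 0.05 in edgeR 1 was higher (Cxcr4). The same pair, Cmklr1 and Ccr1, made up the 2 members whose groups were apart.

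Ccr2, the receptor of Ccl2, Ccl7 and Ccl12 and a marker of inflammatory monocytes, was scarce. Its counts were 71, 54 and 42 in Ctrl and 85, 70 and 77 in AclyM-KO libraries. In CPM these were 4.80, 4.42 and 3.19 against 5.80, 4.5 and 5.28, and the highest Ctrl library exceeded the lowest AclyM-KO library. The log2 fold change was 0.32 (SE 0.19, 95% interval -0.08 to 0.73, edgeR adjusted p = 0.24), so neither a small drop nor an increase past the fold limit lay outside the interval. Leaving out 1 library at a time gave 0.16 to 0.45.

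Monocyte markers bear on Ccr2. The summed level of 10 monocyte markers was 19.5 to 24.9 CPM in Ctrl and 30.8 to 35.8 CPM in AclyM-KO libraries. Of 4 tested, Spn (log2 fold change 1.16) was called higher and F13a1 (-0.89) lower (2.98% and 2.57% over all tested genes). Ly6c1 was at 0 in all libraries. Without Spn, left out after its values were seen, the sums went the other way, 9.73 to 11.2 CPM in Ctrl and 6.82 to 8.91 CPM in AclyM-KO libraries. Their part in the Ccr2 values was not tested.

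Ccr3, the eotaxin receptor, was counted 283, 305 and 257 times in Ctrl and 365, 314 and 262 times in AclyM-KO libraries. Its levels of 19.1, 24.9 and 19.5 CPM in Ctrl and 24.9, 20.2 and 18 CPM in AclyM-KO libraries spanned nearly the same range. The log2 fold change was -0.01 (SE 0.12, 95% interval -0.27 to 0.26, edgeR adjusted p = 0.98), and its sign changed with the library left out (-0.14 to 0.12). Of 12 markers of eosinophils, basophils and mast cells, Il5ra, Mcpt8, Ms4a2 and Fcer1a were at 0 in every library. The summed level of the list was 7.63 to 10.2 CPM in Ctrl and 13.3 to 14.9 CPM in AclyM-KO libraries. Of 3 tested, Kit, the stem cell factor receptor, was called higher (log2 fold change 1.26, against 2.98% called higher over all tested genes). Without Kit, left out after its values were seen, the sums were 5.27 to 6.22 and 6.14 to 7.14 CPM. Its part in the Ccr3 values was not tested.

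Cxcr4, the Cxcl12 receptor, has its gene on chromosome 1 at 128588199 to 128592299. It measured 92.0, 76.7 and 84.5 CPM in Ctrl and 88.8, 98.8 and 98.2 CPM in AclyM-KO libraries. Ctrl replicate 1 lay above AclyM-KO replicate 1, and the other libraries of the groups were apart. The means were 84.4 ± 7.65 and 95.3 ± 5.64 CPM, a log2 fold change of 0.17 (SE 0.066, 95% interval 0.03 to 0.31, unadjusted p = 0.019, edgeR adjusted p = 0.068, exact permutation p = 0.20). The adjusted p was 0.017 without Ctrl replicate 1 (log2 fold change 0.24) and 0.049 without AclyM-KO replicate 1 (0.22), and it was 0.028 without the low-count filter. All values under other settings lay between 0.10 and 0.24, below the fold limit. Cxcl12, the ligand of Cxcr4, was too scarce to test.

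Cx3cr1 had 0 counts in all 6 libraries. Counting error alone then allows at most 3 counts per library, or 0.192 to 0.247 CPM.

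The atypical receptor Ccrl2 was counted 126, 87 and 84 times in Ctrl and 112, 118 and 97 times in AclyM-KO libraries. Its levels were 7.33 ± 1.09 and 7.29 ± 0.560 CPM, and the groups overlapped. The log2 fold change was -0.01 (SE 0.15, 95% interval -0.33 to 0.30, edgeR adjusted p = 0.96), with a range of -0.11 to 0.11 when 1 library was left out. The chemerin receptor that signals was lower, while the interval for the chemerin-binding receptor that does not signal reached neither side of the fold limit. Whether these 2 changes differ from each other was not tested. Chemerin itself, Rarres2, measured 9.0 ± 1.68 CPM in Ctrl and 11.5 ± 0.909 CPM in AclyM-KO cells (log2 fold change 0.36, edgeR adjusted p = 0.075).

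The formyl peptide receptors were near the limit of detection. Fpr1 was counted 2, 5 and 0 times in Ctrl, against 2, 3 and 1 times in AclyM-KO libraries, and Fpr2 had 5, 0 and 1 against 0, 8 and 3. Both fell under the filter on low counts. Tested without it, their log2 fold changes were -0.37 (95% interval -2.39 to 1.64) and 0.69 (-1.13 to 2.51), so these libraries cannot tell a drop from a rise. Of the 50-base words of Fpr2, 37.2% also occur in another gene (Fpr3, Gm5966 or Fpr1), which makes its few counts uncertain. Fpr1 shares only 0.078% of its own words. The genes lie 3.89 kb apart on chromosome 17.

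Neutrophils are rich in Fpr1 and Fpr2 and also carry Ccr1. Of 14 neutrophil markers, 7 were tested, and the others had at most 55 counts in all. Of those tested, Mmp8, S100a8 and S100a9 were called higher and Mmp9 lower (2.98% and 2.57% over all tested genes). The summed level of the list was 275 to 308 CPM in Ctrl and 237 to 253 CPM in AclyM-KO libraries. Without Csf3r, the G-CSF receptor, left out after its values were seen, the sums were 79.4 to 121 and 95.7 to 109 CPM and overlapped. Of the other lists, dendritic cell markers summed to 28.3 to 33.2 and 20.9 to 25.6 CPM. Of 4 dendritic cell markers tested, Cd209a was called higher (2.98% over all tested genes). Lymphocyte markers summed to 14.4 to 18.4 and 10.4 to 13.2 CPM (Ncr1 at 0), and fibroblast markers to 0.379 to 1.06 and 1.23 to 2.06 CPM (Lum at 0). The part of these lists in the receptor values was not tested.

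To order the receptors by level, CPM was divided by transcript length in kb. In Ctrl cells Ccr1 (46.8 ± 4.64 CPM per kb) and Cxcr4 (46.8 ± 4.24) were highest and overlapped. Cmklr1 (8.93 ± 0.734), Ccr3 (6.48 ± 0.996), Ccrl2 (3.93 ± 0.582) and Ccr2 (1.38 ± 0.281) followed, each above the next in every library. Fpr1 (0.137 ± 0.157) and Fpr2 (0.122 ± 0.156) overlapped, with Cx3cr1 at 0.

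In AclyM-KO cells 3 pairs of neighbours stood in the other order. Cxcr4 (52.8 ± 3.13 CPM per kb) lay above Ccr1 (34.5 ± 4.08), and Ccr3 (6.42 ± 1.08) above Cmklr1 (4.88 ± 0.462), without overlap in either pair, while Fpr2 (0.212 ± 0.229) and Fpr1 (0.10 ± 0.047) overlapped as in Ctrl cells. Ccrl2 (3.91 ± 0.300) and Ccr2 (1.73 ± 0.217) kept their places. Among the 52 chemoattractant receptor genes with a known length, Ccr1 and Cxcr4 ranked 4 and 5 in Ctrl cells, behind C3ar1, P2ry6 and Ptafr.

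**Figure D2:**
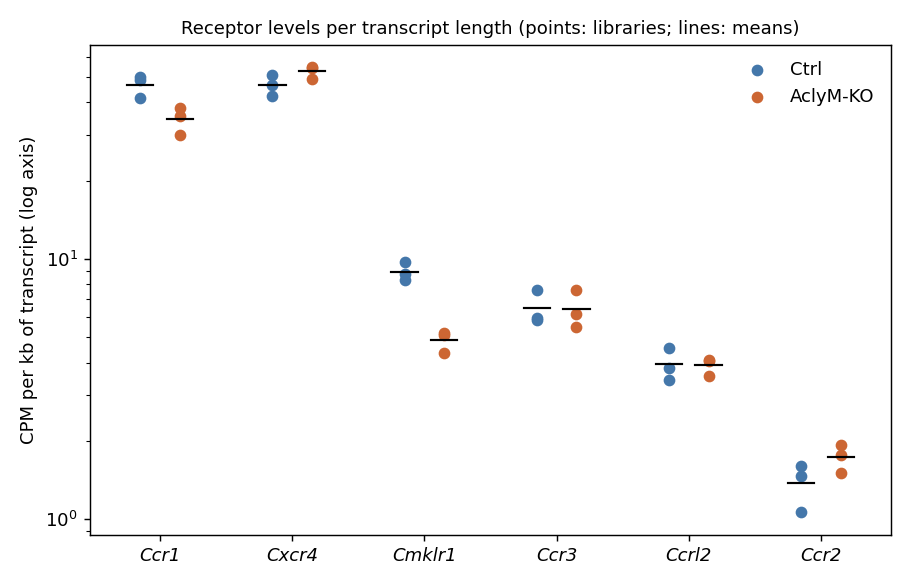
CPM per kb of transcript (log axis) of the 6 tested receptors, with 1 point per library and a line at the mean of Ctrl (blue) and AclyM-KO cells (orange). Ccr1 and Cxcr4 overlap in Ctrl cells, and Cmklr1 lies above Ccr3 in Ctrl but below it in AclyM-KO cells. Fpr1, Fpr2 and Cx3cr1, near or at 0, are not drawn.

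Ratios of counts within a library need no scaling between libraries. The ratio of Ccr1 to Cxcr4 counts was 1.28, 1.85 and 1.63 in Ctrl and 1.21, 1.02 and 0.866 in AclyM-KO libraries. That of Cmklr1 to Ccr3 was 1.47, 0.957 and 1.30 in Ctrl and 0.504, 0.726 and 0.836 in AclyM-KO libraries. Both ratios were lower in every AclyM-KO library than in every Ctrl library. The pairs are neighbours whose order differed between the groups, so the ratios are not separate support for that. Whether the genes changed unequally was not tested, and a ratio does not show which gene moved. Ccr1 and Cxcr4 made up 77.5% to 80.7% of the members' counts in every library. Cmklr1 made up 8.54% to 10.4% in Ctrl and 5.07% to 6.57% in AclyM-KO libraries. The members summed to 271 to 280 CPM in Ctrl and 228 to 247 CPM in AclyM-KO libraries.

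Of the 9 genes, 5 lie on chromosome 9. Ccr1, Ccr3 and Ccr2 sit in a stretch of 257 kb that starts at Xcr1, while Cx3cr1 lies 3.89 Mb and Ccrl2 12.9 Mb from Ccr1. Going from Xcr1, the log2 fold changes were -0.44 for Ccr1, -0.01 for Ccr3 and 0.32 for Ccr2, of which that of Ccr1 alone passed the adjusted threshold. Xcr1 and Ccr1l1 had 21 and 42 counts in all and were not tested. The nearest gene before Xcr1, Fyco1, which serves vesicle transport, had a log2 fold change of -0.16 (edgeR adjusted p = 0.13).

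Of the 17 other chemokine receptors considered, 2 had enough counts to test and neither was called. The scavenging receptor Ackr4 had a log2 fold change of -0.33 (unadjusted p = 0.049, edgeR adjusted p = 0.13) and Cxcr3 one of 0.04 (unadjusted p = 0.89, edgeR adjusted p = 0.93). The other 15 had at most 55 counts in all, and Ccr4, Ccr8 and Ackr1 were at 0. Of 28 receptors of other chemoattractants (complement, leukotrienes, nucleotides, sphingosine 1-phosphate and others), 17 were tested. Of these, 3 were called lower (2.57% over all tested genes) and 0 higher (2.98%). These were Cysltr1, a receptor of cysteinyl leukotrienes (22.6 ± 2.01 to 14.7 ± 1.58 CPM, log2 fold change -0.62), Ltb4r1, the high-affinity leukotriene B4 receptor (4.72 ± 1.31 to 3.02 ± 0.390 CPM, -0.64), and Gpr35 (7.95 ± 1.09 to 4.45 ± 0.617 CPM, -0.83). Their edgeR adjusted p-values were 4.18e-04, 0.048 and 0.0019. Over both lists of other receptors, DESeq2 and limma-voom each called 2. The number called was 1 without Ctrl replicate 3 and 1 without AclyM-KO replicate 2. By adjusted p alone 5 of the 17 were lower and 1 higher (12.6% and 12.4% over all tested genes), and the median log2 fold change of the 17 was -0.18. The one that was higher, C3ar1, the receptor of complement C3a, was also the most abundant (1200 ± 5.63 to 1370 ± 13 CPM, log2 fold change 0.19). Fpr3, Fpr-rs3, Fpr-rs4, Fpr-rs6 and Gpr1 were at 0.

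**Figure D3:**
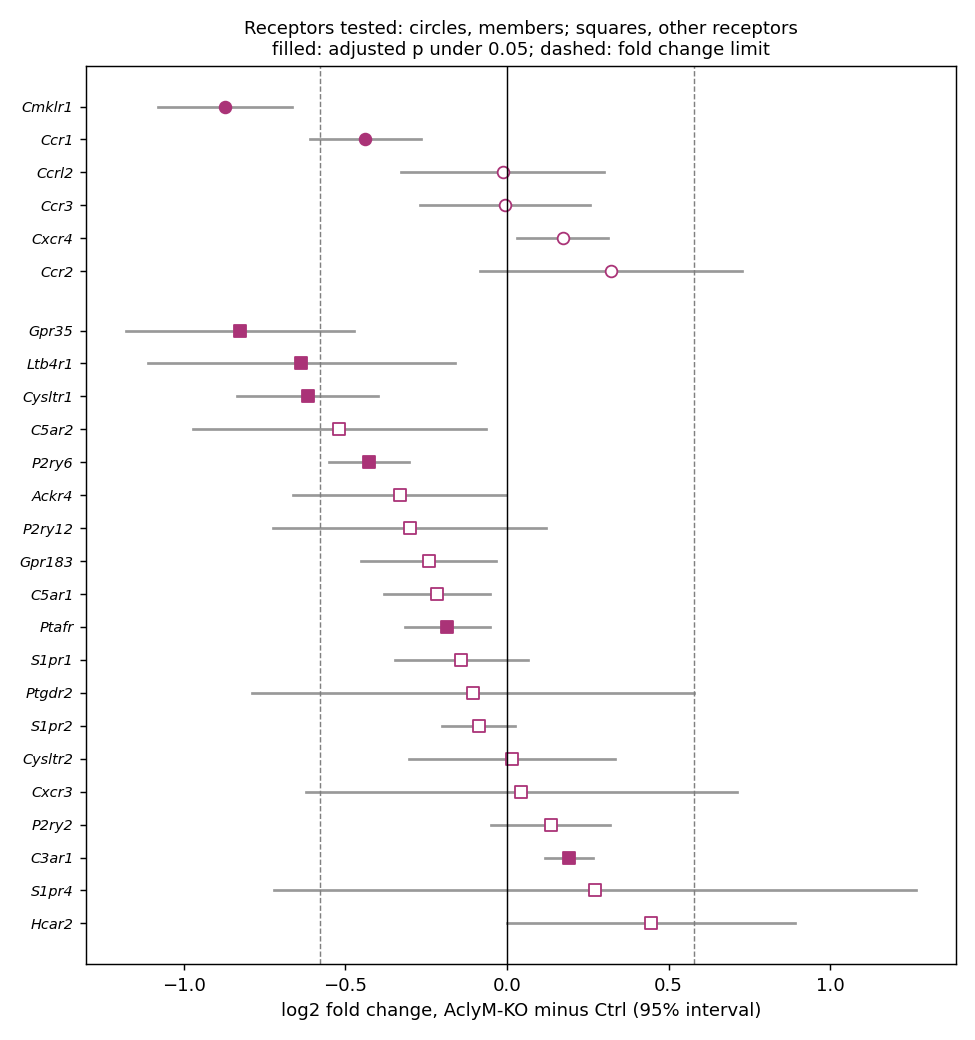
Log2 fold change (AclyM-KO minus Ctrl) with its 95% interval for the 6 tested members (circles, top) and 19 other tested receptors (squares), filled where the edgeR adjusted p was under 0.05, with dashed lines at the fold limit of 0.58. Of the filled symbols only C3ar1 lies to the right of 0, and Cmklr1, Gpr35, Ltb4r1 and Cysltr1 lie beyond the left dashed line.

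Several genes for ligands of the 9 receptors were higher in AclyM-KO cells. Of 19 listed ligand genes 16 were tested, of which 3 were called higher and 1 lower (2.98% and 2.57% over all tested genes). By adjusted p alone 6 were higher and 2 lower (12.4% and 12.6% over all tested genes). The median log2 fold change of the list was 0.10. Called higher were Ccl8 (36.0 ± 9.06 to 156 ± 6.46 CPM, log2 fold change 2.10), Ccl12 (12.6 ± 2.68 to 29.5 ± 0.623 CPM, 1.21), a Ccr2 ligand, and Saa3 (4.88 ± 1.10 to 8.61 ± 1.16 CPM, 0.81), a serum amyloid A protein. Ccl8 acts in the mouse mainly through Ccr8, which had 0 counts. Mif, a cytokine that also binds Cxcr4, was called lower (18.3 ± 0.661 to 10.5 ± 1.09 CPM, -0.80). The most abundant gene of the list was Lgals3, galectin-3 (6530 ± 130 to 7117 ± 14.9 CPM, 0.12).

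Of 33 tested genes of receptor signalling (G proteins, kinases and small GTPases), 0 were called in edgeR. By adjusted p alone 11 were lower and 3 higher (median log2 fold change -0.02). Over all tested genes 12.6% were lower and 12.4% higher by adjusted p alone, and 2.57% were called lower and 2.98% higher. The most abundant was Cdc42 (0.13). Of 24 genes that end or redirect the signal, 2 were called higher and 1 lower (median log2 fold change 0.02). Grk3, a kinase that phosphorylates active receptors, went from 9.76 ± 0.741 to 6.08 ± 0.700 CPM (log2 fold change -0.68, edgeR adjusted p = 0.0022). Nedd4, a ubiquitin ligase, went from 2.25 ± 0.628 to 6.45 ± 0.972 CPM (1.52). Rgs16, which speeds G proteins back to rest, went from 2.57 ± 0.480 to 4.48 ± 0.660 CPM (0.81). The most abundant gene of the list, Rab7, a GTPase of late endosomes, had a log2 fold change of 0.10 (edgeR adjusted p = 0.12).

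The genes whose log2 CPM followed Cmklr1 most closely over the 6 libraries were Sidt2 (Pearson r = 0.999), Ctsh (0.997) and C1qc (0.996). Sidt2 is a lysosomal membrane protein, Ctsh is the protease cathepsin H, and C1qc is a chain of complement C1q. For Cxcr4 they were Ankra2 (0.995), Ogfr (0.993) and Smim14 (0.992). These correlations share 6 libraries and the split between groups, and are a description. An r over 0.9 with Cmklr1 was reached by 7.37% of the tested genes, and with Cxcr4 by 1.70%.

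**Figure D4:**
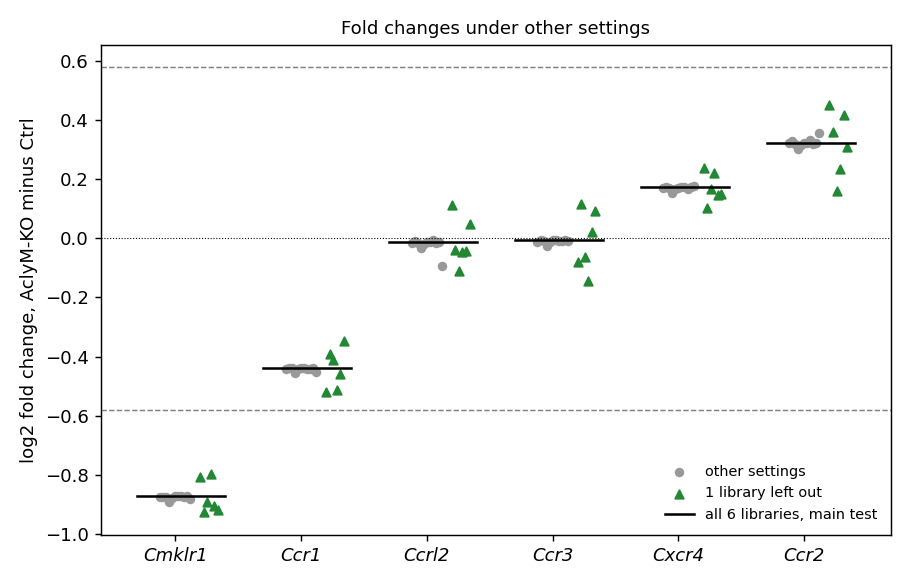
Log2 fold change (AclyM-KO minus Ctrl) of each tested receptor in the main test (black line), under other settings with all 6 libraries (grey circles) and with 1 library left out (green triangles), with dashed lines at the fold limit of 0.58. Cmklr1 stays between -0.93 and -0.80, and values of Ccr3 and Ccrl2 fall on both sides of 0.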

How the data were processed

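Per the labels, the authors made mRNA libraries from 6 samples and used STAR 2.5.2b and the mm10 build. Their deposited table holds raw counts for each RefSeq transcript. The program that counted the reads is not given in the sources used here. All columns of the table were used (0 were left unmapped). Rows were matched to symbols through the RefSeq table of GRCm38.p6 and then GENCODE. The row with the highest total was kept for each gene, since isoform rows share reads, so the 3 Ccrl2 rows, with identical counts, entered once. The 117 rows without a gene (0.370% to 1.38% of counts) were left out.

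The test was the quasi-likelihood F test of edgeR 4.0.16 (R 4.3.3) with genotype as its single term, after filterByExpr and TMM scaling, adjusted over all 12023 tested genes by the Benjamini-Hochberg method. The common biological coefficient of variation was 0.0588. The procedure was first tested on simulated data. DESeq2 1.42.0, limma-voom (limma 3.58.1), glmTreat, other scalings, filters and transcript rows, thinned depth, the replicate block and leaving out each library were alternatives. Exact permutation tests on CPM used scipy 1.17.1. Limits from 3 counts cover counting error only. Replicates differed by more than sampling noise (chi-square per gene 2.31 to 7.46 within groups).

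The members, lists and tests were chosen with earlier results of these data known. Named genes were all members, Acly, called genes of each list (at most 6, by p-value) with its most abundant gene, the chromosome 9 receptor stretch with its nearest neighbour, and the 3 genes most alike Cmklr1 and Cxcr4. Cxcr3, Csf3r, C3ar1, P2ry6, Ptafr, Rarres2 and Cxcl12 are named outside that rule where a value called for it. The chromosome 9 rule named Ccrl2 as the far end, but Ccrl2 lies 12.9 Mb away on GRCm38.p6, so the stretch is given from Xcr1 to Ccr2. Some genes are not reported here and were left out of the lists. A planned comparison of the receptor proteins was not made. Promoter sequences are RefSeq's, on GRCm38.p6, and all 9 members matched.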

Additional observations from a re-analysis of the deposited data

How the results depend on the processing

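Across 18 alternatives, 93 of 102 log2 fold changes of the 6 tested members kept their direction and their side of the threshold, 3 passed the adjusted threshold (all Cxcr4, described with that gene), 1 lost it (Cmklr1 under glmTreat, adjusted p = 0.078) and 5 changed sign. Under glmTreat members were compared by the call of the main test. Ccr1, not called there, therefore counts as kept, although under glmTreat its adjusted p was no longer under 0.05. The sign changes came from leaving out 1 library, which moved Ccr3 between -0.14 and 0.12 and Ccrl2 between -0.11 and 0.11. Of the members, 1 was called lower in the main test, 2 without a fold limit and 0 under glmTreat, where fewer genes can pass by construction. Of the other receptors 3 were called, against 2 with DESeq2, 2 with limma-voom, 6 without a fold limit, 0 under glmTreat and 1 to 3 when 1 library was left out (1 without Ctrl replicate 3, 1 without AclyM-KO replicate 2). With the other settings Cmklr1 was called each time.

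Libraries that share a replicate number did not deviate together (r = -0.065, 0.050 and -0.031), so no pairing by number was seen. With 3 libraries a group and a spread that may be technical, this cannot exclude a shared origin. The fit with the replicate block gave a log2 fold change of -0.87 for Cmklr1 and -0.44 for Ccr1 and changed no call of the members. With 3 libraries a group, genes with as few counts as Fpr1 and Fpr2 (13 and 17 in all) could not be judged.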
